A study of Caenorhabditis elegans with 2 samples.

Results

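The genes described here are 10 genes of the attachment and elastic framework of nematode muscle: unc-22, unc-89, ttn-1, deb-1, unc-112, pat-2, pat-3, pat-4, unc-97 and atn-1. They were chosen by gene name in the deposited expression table. All 10 were listed, among 19874 genes analysed. RNA sequencing was done on total RNA of mixed-stage Caenorhabditis elegans cultures grown at 20 °C on OP50 bacteria. The 2 samples, replicates 1 and 2, form 1 group: both carry daf-2(e1370), a mutation in the insulin/IGF-like receptor gene, and daf-12(m20), a mutation in a gene for a steroid hormone receptor. With neither a wild type nor a strain of either mutation alone among the samples used here, no value shows an effect of the alleles. Nothing in the labels says that the replicates were grown apart, so the spread between them may be technical, and no test between groups was possible.

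Body wall muscle of the nematode is obliquely striated, and its filaments are anchored to the cell membrane. Thin filaments end at dense bodies, the counterpart of vertebrate Z-discs, and thick filaments are tied at M-lines. Both structures sit on integrin adhesions, through which force passes to the basement membrane and cuticle. Very large proteins built from immunoglobulin and fibronectin type III domains, relatives of vertebrate titin and obscurin, run along or across the filaments. Loss of several attachment genes gives the Pat phenotype, in which the embryo is paralysed and stops elongating.

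The authors' values are RPKM, reads divided by gene length and library size, so genes can be set side by side per length. The steps between low RPKM values gave depths of about 10500000 and 14700000 reads for replicates 1 and 2. Estimated read numbers below use the longest annotated coding sequence of a gene. Intervals are exact Poisson intervals at a level of 95% and cover counting error only. Markers of body wall muscle were present: all 6 of the fixed list (unc-54, myo-3, unc-15, hlh-1, unc-27, mup-2) reached 1 RPKM in both replicates, with a median of 184 RPKM in each. Intestine, neuron, epidermis and germ line markers were also present, with all 5 of each list at that level or above in both. Of 7 pharyngeal muscle genes, 5 did so, and the medians of the 7 were 1.66 and 1.53 RPKM in replicates 1 and 2. A mean of at least 1 RPKM was reached by 72.0% of all genes, so these counts alone say little about a tissue. In such whole-animal RNA, fewer cells of a type and less RNA per cell cannot be told apart.

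The 10 genes fell into separate ranges by role. The 7 attachment genes lay between 20.7 and 69.96 RPKM (means of the replicates), and the 3 giants lay between 0.28 and 2.70 RPKM. The median of the attachment genes was 17.2 times that of the giants in replicate 1 and 19.8 times in replicate 2 (mean 18.5 ± 1.8, SD, n = 2). No giant reached the lowest attachment gene in either replicate. The longest coding sequences were 21477 to 45567 bp in the giants and 1047 to 3681 bp in the attachment genes. Role and length can therefore not be told apart in this contrast. Of the 10 genes, 9 had a mean of at least 1 RPKM, beside 72.0% of all genes, and 7 had a mean of at least 10 RPKM, beside 42.0% of all genes. None reached 100 RPKM, where 7.63% of all genes lay.

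**Figure D1:**
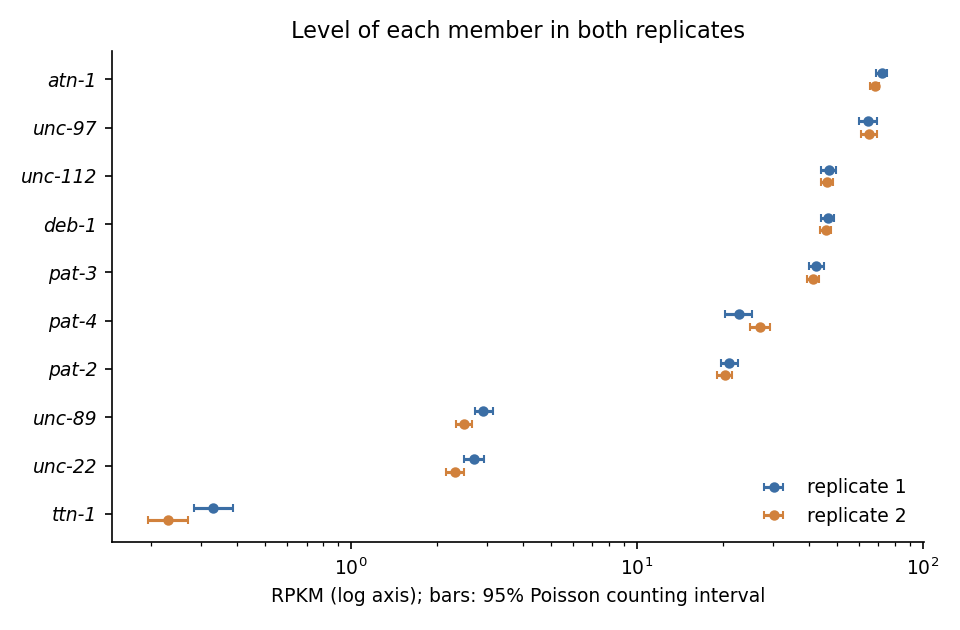
RPKM of each of the 10 genes on a log axis, with points for replicate 1 and replicate 2 and bars for the 95% Poisson counting interval. The 7 attachment genes sit at 20.29 RPKM or more in both replicates, and the 3 giants at 2.91 RPKM or less.

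Among the giants, unc-22 encodes twitchin, a kinase-bearing protein of the thick filament whose loss makes the muscle twitch. It was at 2.70 and 2.31 RPKM in replicates 1 and 2 (mean 2.50 ± 0.28, SD, n = 2). These values rested on about 611 and 727 reads, with intervals of 2.49 to 2.92 and 2.15 to 2.48 RPKM. The intervals did not overlap, and replicate 2 was the lower. In the WBcel235 annotation unc-22 lies on chromosome IV from 11972697 to 12011007 on the minus strand, with a longest coding sequence of 21477 bp, or 7158 residues.

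unc-89 encodes the obscurin relative of the M-line. It was at 2.91 and 2.49 RPKM in replicates 1 and 2 (mean 2.70 ± 0.30, SD, n = 2), from about 744 and 885 reads. Its level was 1.08 times that of unc-22 in each replicate, while the counting intervals of the pair overlapped, so their order was not separated beyond counting error. The gene lies on chromosome I from 4035702 to 4090885 on the plus strand and has 16 annotated coding transcripts of 4182 to 24246 bp.

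ttn-1 encodes a titin-like protein and has the longest annotated coding sequence of any gene matched here, 45567 bp or 15188 residues. It was at 0.33 and 0.23 RPKM in replicates 1 and 2 (mean 0.28 ± 0.07, SD, n = 2). Its length still gave about 159 and 154 reads, far over a floor of 3 reads. Intervals were 0.282 to 0.387 and 0.196 to 0.270 RPKM and did not overlap. ttn-1 was thus detected in both libraries but at 0.122 times the level of unc-22 in replicate 1 and 0.0996 times in replicate 2. It lies on chromosome V from 6120909 to 6202632 on the minus strand, with 15 coding transcripts of 8370 to 45567 bp. The gene model that the authors used for it is not given in the sources used here, and its RPKM depends on that length. The same limit holds for unc-22, unc-89, deb-1 and atn-1, which also have several annotated coding lengths, and for ratios that use these genes.

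The giants were also set beside genes of like size. Of 42 genes with at least 10 kb of annotated coding sequence, the median was 3.95 RPKM, the quartiles were 2.08 and 9.60 RPKM, and the highest was at 19.3 RPKM. ttn-1 was the fifth from the lowest of these 42 in both replicates. By the mean of the replicates unc-22 ranked 13 and unc-89 ranked 16 from the lowest, and by single replicates they ranked 13 and 15, and 15 and 17. Both thus lay between the lower quartile and the median of long genes, and ttn-1 lay under the lower quartile. All 42 long genes, the giants included, were below the lowest attachment gene, pat-2 at 20.7 RPKM. Genes listed only as rows with coordinates were left out of the 42 whatever their length. The perlecan gene unc-52 is one of these, and at 27.48 and 25.7 RPKM in replicates 1 and 2 it was above pat-2. The statement therefore covers only the long genes that were analysed.

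Large genes of the fixed lists gave a wide range. dig-1, a giant extracellular protein gene, was nearest to ttn-1 in level, at 0.48 and 0.44 RPKM in replicates 1 and 2. unc-68, the ryanodine receptor gene of muscle calcium release, was nearest to unc-89, at 3.14 and 2.68 RPKM. ketn-1, the kettin gene of the thin filament and dense body region, was the lowest of the other attachment and M-line genes, at 4.72 and 3.82 RPKM in replicates 1 and 2. unc-22 was at 0.572 times ketn-1 in replicate 1 and 0.605 times in replicate 2. The spectrin gene unc-70 and the ankyrin gene unc-44, used in many tissues, were the highest of the fixed list of large genes outside the sarcomere, at 33.0 ± 0.01 and 14.1 ± 0.06 RPKM (SD, n = 2). unc-70 has less than 10 kb of coding sequence and is not among the 42 genes above.

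**Figure D2:**
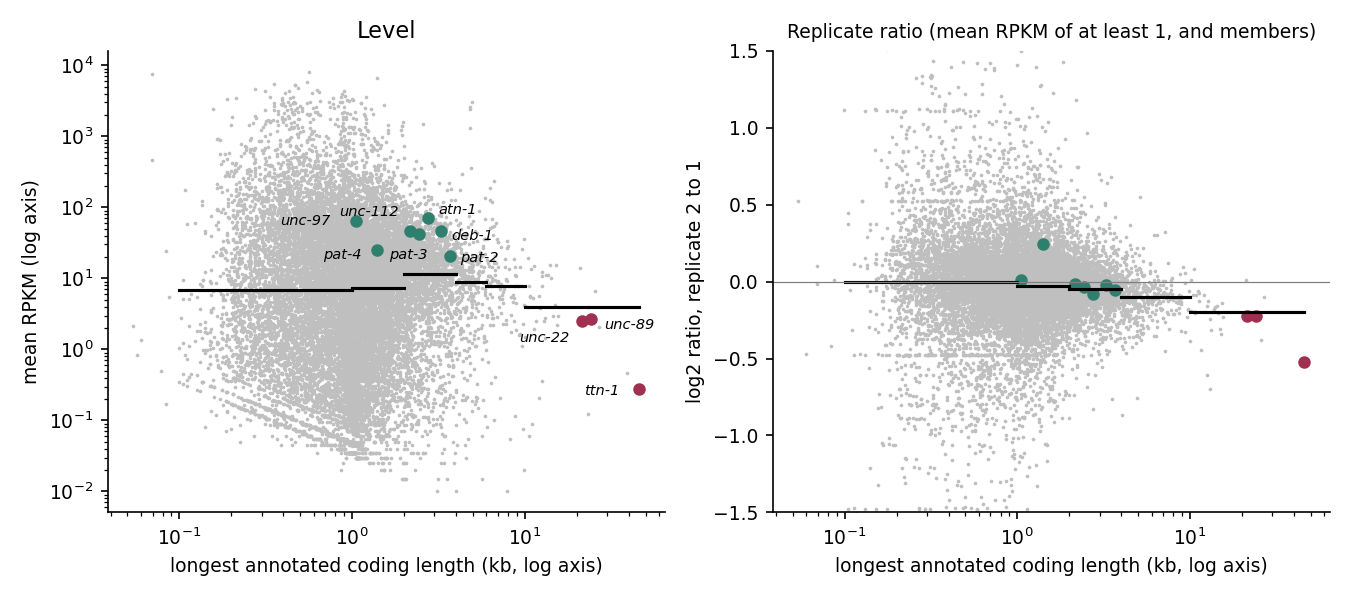
Mean RPKM (left, log axis) and log2 ratio of replicate 2 to replicate 1 (right) against the longest annotated coding length in kb (log axis). Grey points are all genes with a coding length on the left and those with a mean of at least 1 RPKM on the right, where ratios beyond 1.5 in size are not drawn. Red points are the giants, green points the attachment genes and black lines the median of each length class, which falls to 3.95 RPKM and a log2 ratio of -0.20 at 10 kb or more.

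The integrin receptor is a pair of an alpha and a beta chain. pat-3, the beta integrin gene that serves muscle and many other tissues, was at 42.44 and 41.35 RPKM in replicates 1 and 2 (mean 41.9 ± 0.77, SD, n = 2). pat-2, the alpha integrin gene of muscle, was at 21.08 and 20.29 RPKM (mean 20.7 ± 0.56, SD, n = 2). Neither gene differed between replicates beyond counting error. The beta chain RNA stood at 2.01 times the pat-2 level in replicate 1 and 2.04 times in replicate 2. ina-1, the other alpha integrin gene, was at 17.5 and 16.01 RPKM in replicates 1 and 2, below pat-2 in both. Added together, the alpha genes reached 38.58 and 36.30 RPKM, and pat-3 was at 1.10 and 1.14 times that sum. pat-2 and pat-3 both lie on chromosome III, pat-2 from 8818899 to 8825266 on the plus strand and pat-3 from 3908931 to 3914149 on the minus strand.

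Behind the integrin tail sit a kindlin and the complex of integrin-linked kinase, PINCH and parvin. unc-112, the kindlin gene, was at 46.85 and 46.29 RPKM in replicates 1 and 2 (mean 46.6 ± 0.40, SD, n = 2). pat-4, the integrin-linked kinase gene, was the lowest of this adaptor set, at 22.82 and 26.99 RPKM (mean 24.9 ± 2.95, SD, n = 2). unc-97, the LIM-domain PINCH gene, was at 64.52 and 65.13 RPKM (mean 64.8 ± 0.43, SD, n = 2). pat-6, the parvin gene, is not among the 10 genes but completes the complex, at 66.11 and 71.76 RPKM.

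The RNAs of the complex were unequal per length. unc-97 was at 2.83 times pat-4 in replicate 1 and 2.41 times in replicate 2. pat-6 was at 2.90 and 2.66 times pat-4, and unc-112 at 2.05 and 1.72 times. In each case the gap to pat-4 was larger than the distance between replicates. pat-4 lies near the left end of chromosome III from 89453 to 94809, unc-97 on chromosome X from 5593133 to 5594965 and unc-112 on chromosome V from 14691855 to 14696654. unc-97 is the shortest gene of the 10, with 1047 bp of coding sequence or 348 residues.

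Dense bodies also hold actin-binding linkers. atn-1, the alpha-actinin gene, had the highest mean of the 10 genes, at 71.91 and 68.01 RPKM in replicates 1 and 2 (mean 69.96 ± 2.76, SD, n = 2). deb-1, the vinculin gene, was at 46.49 and 45.79 RPKM (mean 46.1 ± 0.49, SD, n = 2). atn-1 was at 1.55 times deb-1 in replicate 1 and 1.49 times in replicate 2. The talin gene tln-1, listed under its sequence name Y71G12B.11, was at 14.99 and 14.27 RPKM, which was 0.322 and 0.312 times deb-1. The perlecan gene unc-52, which encodes a basement membrane ligand of the adhesions, was listed only as a row with coordinates, at 27.48 and 25.7 RPKM in replicates 1 and 2. atn-1 lies on chromosome V from 12478411 to 12484449 and deb-1 on chromosome IV from 7085215 to 7094266.

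In the order of mean levels, from atn-1 through unc-97, unc-112, deb-1, pat-3, pat-4, pat-2, unc-89 and unc-22 to ttn-1, each gene was higher than the next in both replicates. Several neighbours were nevertheless not separated. The replicate ranges of unc-112 and deb-1 overlapped, as did those of unc-89 and unc-22, and their counting intervals overlapped in both replicates. The counting intervals of atn-1 and unc-97 also overlapped in both. Those of deb-1 and pat-3, and of pat-4 and pat-2, overlapped in replicate 1 but not in replicate 2. The steps from unc-97 to unc-112, from pat-3 to pat-4, from pat-2 to unc-89 and from unc-22 to ttn-1 exceeded both kinds of spread.

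The replicates were compared as the only repeat measurement. With a pseudocount of 1 before the log2, which shrinks the ratios of low genes, no gene of the 10 lay beyond 2-fold, beside 0.713% of 14313 genes with a mean of at least 1 RPKM. Of the 9 genes at that limit, 7 were lower in replicate 2, beside 55.5% of all genes. The ratios of RPKM itself are given from here on. The coefficient of variation over the replicates ran from 0.665% for unc-97 to 11.8% for pat-4 among the attachment genes, and reached 25.3% for ttn-1 among the giants. Of the 7 attachment genes, 6 had a counting interval of the log2 ratio that held 0. Among these the interval of atn-1, -0.16 to 0.00, ended at 0, and with replicates set to equal sums of RPKM 4 of the 10 genes, atn-1 included, had an interval below 0 instead of 3. pat-4 was the exception, with a log2 ratio of 0.24 (interval 0.04 to 0.44), where 6.71% of genes had an interval above 0. Its Poisson intervals, 20.4 to 25.4 RPKM and 24.8 to 29.3 RPKM, overlapped at their ends.

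All 3 giants had an interval below 0, that is, lower in replicate 2, beside 10.6% of all genes with a mean of at least 1 RPKM and a coding length. The log2 ratio was -0.23 for unc-22 (interval -0.38 to -0.07), -0.22 for unc-89 (interval -0.37 to -0.08) and -0.52 for ttn-1 (interval -0.85 to -0.19), which lies under the 1 RPKM limit. This difference moved with coding length over the whole table. The median log2 ratio was -0.03 for genes of 1 to 2 kb, -0.05 for 2 to 4 kb, -0.10 for 4 to 6 kb and for 6 to 10 kb, and -0.20 for the 35 genes of 10 kb or more that passed the limit. Of those 35, 32, or 91.4%, were lower in replicate 2, and 24, or 68.6%, had an interval below 0. Set against the median of their length class, a comparison added after seeing the data, unc-22 and unc-89 were each at -0.03 and ttn-1 at -0.33. None of the 3 kept an interval below 0, but ttn-1 was at the edge. Its interval ended at -0.19, against a class median of -0.20. unc-22 and unc-89 are themselves among the 35 genes behind that median, and ttn-1 is not. The part of coding length in these replicate differences was not tested further.

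**Figure D3:**
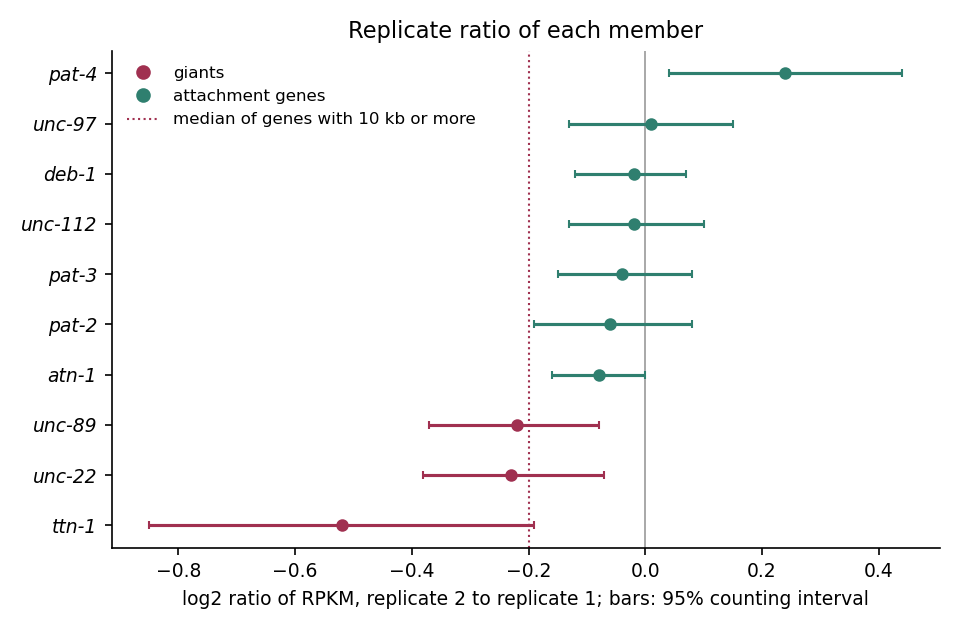
Log2 ratio of RPKM, replicate 2 to replicate 1, for each of the 10 genes, with bars for the 95% counting interval. The 3 giants (red) lie at -0.22 or lower with intervals below 0, pat-4 lies at 0.24, and the intervals of the other 6 hold 0. The dotted line is the median of genes with 10 kb or more of coding sequence and a mean of at least 1 RPKM, -0.20.

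By median the 10 genes were below the contractile filament genes, while the ranges overlapped. The median of the 10 genes was 33.4 RPKM, and that of the 7 attachment genes alone was 46.1 RPKM. The median of all genes was 6.17 RPKM. The 7 thick filament genes had a median of 233 RPKM. Their highest were the myosin light chain genes mlc-2 at 2490 ± 178 RPKM and mlc-3 at 1579 ± 72.6 RPKM, with the myosin chaperone gene unc-45 lowest at 17.8 ± 0.91 RPKM (SD, n = 2). The 18 thin filament genes listed had a median of 571 RPKM. Their highest were the troponin C gene pat-10 at 4766 ± 263 RPKM and the actin gene act-4 at 2929 ± 73.6 RPKM, with the troponin T gene tnt-3 lowest at 13.2 ± 0.62 RPKM. unc-54, the major body wall myosin heavy chain gene and chosen after its value was seen, was at 50.7 times unc-22 in replicate 1 and 57.1 times in replicate 2, but at only 1.90 and 1.94 times atn-1. Actin and other multigene families can share reads between near-identical copies, which leaves their single values uncertain.

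The other attachment, dense body and M-line genes were closer to the 10 genes. All 16 that were listed under their own symbol had a mean of at least 1 RPKM, 13 of them at least 10 RPKM, and their median was 26.2 RPKM. The highest were dim-1, which encodes an immunoglobulin-domain protein of the attachment region, at 284 ± 13.5 RPKM and the zyxin gene zyx-1 at 118.5 ± 6.99 RPKM (SD, n = 2). The nearest of all fixed-list genes in level was the paxillin gene pxl-1 for both deb-1 and unc-112, at 45.11 and 46.75 RPKM in replicates 1 and 2. It was pat-6 for atn-1, the LIM-domain gene lim-9 for pat-3 (38.9 and 39.94 RPKM) and the M-line gene unc-96 for pat-2 (20.38 and 19.39 RPKM). For unc-97 and pat-4 it was a gene of another tissue list, the intestinal esterase gene ges-1 and the epidermal GATA factor gene elt-3, and for unc-22 the pharyngeal troponin T gene tnt-4. Likeness here is of level over 2 samples alone, which give no pattern across conditions.

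Epidermal fibrous organelles carry the force of the muscle through the epidermis to the cuticle. Of the 8 genes listed for them, 7 were at 10 RPKM or more, with a median of 15.2 RPKM. The intermediate filament gene ifb-1 was highest at 201.3 ± 2.24 RPKM and ifa-3 lowest at 0.33 and 0.74 RPKM in replicates 1 and 2. let-805, the myotactin gene, and vab-10, the spectraplakin gene, are both over 10 kb and were at 11.2 ± 1.07 and 15.4 ± 2.55 RPKM (SD, n = 2), chosen after their values were seen.

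**Figure D4:**
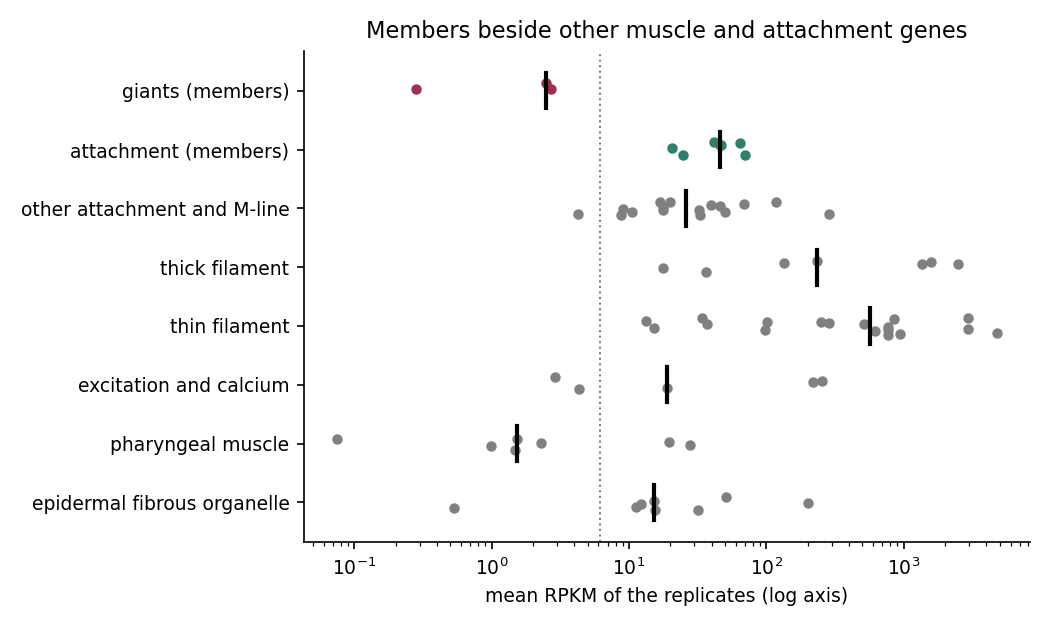
Mean RPKM of the replicates (log axis) for each gene of 8 lists, with a black bar at each list's median and a dotted line at the median of all genes, 6.17 RPKM. The giants lie left of that line, the attachment genes right of it, and the thick and thin filament genes reach furthest right with medians of 233 and 571 RPKM.

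Gene structure differed between the roles. The giants have 9 to 16 annotated coding transcripts and from 37 to 64 separate coding exons, while unc-112, pat-2, pat-3, pat-4 and unc-97 each have 1 coding transcript and 6 to 11 coding exons. deb-1 has 8 coding transcripts and atn-1 has 4. In estimated reads the giants were 16.4% of the reads of the 10 genes in replicate 1 and 14.4% in replicate 2, against 1.84% and 1.58% of their summed RPKM. Exons of 3 of the 10 genes overlap those of other protein-coding genes in the annotation: unc-22 with ZK829.9 over 93 bp and ZK617.26 over 39 bp, unc-112 with gasr-8 over 122 bp, and pat-2 with F54F2.9 over 41 bp. ZK617.26 lies on the same strand as unc-22, where strand does not separate reads. The other 3 overlaps are with genes of the opposite strand, and whether the counting used strand is not given in the sources used here. Reads in the ZK617.26 stretch can therefore not be assigned by strand, and for the other 3 this is not known. Exons of unc-22 also overlap the non-coding genes ZK617.7 over 130 bp on the same strand and ZK617.19 over 123 bp on the opposite strand. A piRNA gene overlaps exons of deb-1 over 9 bp. All these stretches are short beside the genes themselves.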

How the data were processed

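Total RNA from both samples was made into TruSeq libraries, per the labels' protocols, and the submitters' processing notes name CASAVA 1.8.2. Which aligner, counting method, annotation and build were used is not given in the sources used here, and neither is strand use. RPKM was deposited by the authors per gene and replicate, with 2 decimals, per the file headers. Commas in values of 1000 or more (205 and 208) were removed and ranges asserted. Of 19990 rows, 104 that carry coordinates after the gene name and 12 with a repeated name were left out. Names were matched to WBcel235 (Ensembl release 115): 15965 by symbol, 2881 by sequence name, 1028 not. Coordinates are those of WBcel235.

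RPKM times coding length, for genes of up to 1 kb with 1 coding length, was within 0.1 of a whole read for 87.8% of 2941 values in replicate 1 and 88.2% of 2502 in replicate 2 (up to 20 reads; 20% by chance), which gave the depths. RPKM and read numbers of genes with several transcripts depend on the authors' unstated gene model. A ratio interval is the exact Clopper-Pearson interval of the share of reads.

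RPKM is not a count, so no count model was used, and 1 group allows no test and no p-value. The genes and the 14 gene lists were chosen with earlier results of these data known. Named genes are the 10 genes, the highest 2 and the lowest of each list, adhesion partners and the nearest list gene in level; others are marked. One thin filament name, tmd-1, is the same gene as unc-94 in the annotation and was counted once. Scripts were tested on simulated data. Software was Python 3.11.15 with scipy 1.17.1, pandas 2.3.3, matplotlib 3.10.9 and numpy 2.4.6.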

Additional observations from a re-analysis of the deposited data

How the results depend on the processing

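With replicates set to equal sums, to a median ratio of 0 or to equal quantiles, and without either replicate, 9 of the 10 genes stayed at a mean of at least 1 RPKM, and under the 3 scalings no gene lay beyond 2-fold; none lay beyond 1.5-fold in the values as deposited. With pseudocounts of 0.1 and 0.5 the median log2 level of the giants minus that of the attachment genes was -4.15 and -3.96, against -3.75 with a pseudocount of 1, since the pseudocount shrinks low values. Without genes under 1 RPKM the log2 ratio of a list's median to that of the 10 genes was 2.47 for thick filament (2.80 with them), 3.77 for thin filament (4.09), -0.68 for other attachment genes (-0.35) and -4.19 for pharyngeal muscle (-4.44, and -4.48 to -4.30 leaving out a replicate), since ttn-1, myo-5 and ceh-22 then drop out. Among genes of at least 5 kb, 24% lay below unc-22 and 26% below unc-89, against 28.6% (28.6% to 33.3% leaving out a replicate) and 35.7% at 10 kb. With a limit of 10 RPKM, 0.0959% of all genes lay beyond 2-fold. Relative to their length class, 0 genes had a ratio interval below 0, against 3 as deposited and 4 at equal sums. The interval of ttn-1 then ended close to 0. The sign of small log2 ratios turned: unc-97 to -0.01 at equal sums, unc-112 to 0.01 at a median of 0, deb-1 and unc-112 to 0.02 by quantiles, and deb-1 and unc-112 to 0.03 and pat-3 to 0.01 within length classes. By the union of coding exons ttn-1 had 193 and 187 reads. No paired analysis was possible because the series holds 1 group. Depth limits ttn-1 most, whose RPKM also carries 2 decimals only.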

Other observations

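Several other long genes shared the lower value in replicate 2 that the giants showed. All genes named in this paragraph other than unc-44 were chosen after their values were seen. eel-1 was at 12.93 and 8.5 RPKM in replicates 1 and 2, and F55F10.1 was at 3.41 and 2.1 RPKM. anc-1, a nuclear anchorage gene with 25638 bp of coding sequence, was at 7.44 and 5.73 RPKM. The log2 ratios were -0.61 for eel-1, -0.7 for F55F10.1 and -0.38 for anc-1. All lay below the median of -0.20 and the lower quartile of -0.23 for genes of 10 kb or more with a mean of at least 1 RPKM. These genes are therefore not typical of long genes in the size of the difference. unc-44, with 20985 bp, was at 14.05 and 14.13 RPKM, so the shift was not present in every long gene. The cause of the shift was not tested.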
